A study of Rattus norvegicus with 20 samples.

Results

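The genes described here are 23 members of developmental transcription factor families, measured by RNA-seq in cultured rat epithelial cells of 5 tissues before and after a stay in skin. They were taken by symbol, as names that begin with a family name such as Hox, Fox, Sox, Tbx, Isl, Irx, Barx, Dlx, Elf, Ehf or Etv, from the 2311 gene identifiers that the supplementary gene lists of the study pair with a symbol. Those lists hold genes that differed from whisker cells, and the smaller is described as genes in common between the comparisons. Sox11, which is in the smaller list, was at 1 count or fewer in every recovered sample. A place in that list therefore does not mean a difference in every tissue and round. Of the members, 9 came from the smaller list and the others from the larger, all through a difference from whisker cells. The whisker levels below are therefore a description and were not tested against the other tissues. The changes after transplantation and the differences between the other tissues were not used to make the lists, but they rest in part on the same samples, so each count of members is set beside the share of all 13302 genes tested and the share of the genes with a symbol. Dlx6as is a member by its name but is an antisense transcript and not a transcription factor.

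Epithelial cells of rats that carry EGFP in their tissues, a green rat line on the Sprague-Dawley background, were grown on irradiated mouse 3T3-J2 feeder cells. They came from the dome of the bladder at postnatal day PN201, trachea and vagina at PN200, thymus at PN137 and whisker follicle at PN57. Each tissue was sampled before transplantation (1st round) and again from cells recovered from grafts in newborn mouse skin carried by nude mice (2nd round). Each of the 10 groups had 2 samples, which makes 20. The cells were sorted for EGFP before RNA was extracted. Whisker cells were clone 7 before transplantation and its subclone 14 afterwards, so the whisker change compares a clone with a subclone of it. Frozen stock supplied the thymic cells, and their samples before transplantation are labelled both as a bulk culture and as clone 9. The recovered thymic samples carry no clone number, so the thymus change may compare a clone with an uncloned culture. The tissues differ in donor age, which cannot be told apart from tissue. The labels do not say that the 2 samples of a group came from separate animals, so the p values measure only the spread between these samples, which may be technical.

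Transcription factors of these families bind DNA through conserved domains, the homeodomain in Hox, Dlx, Barx, Irx and Isl proteins, the T-box in Tbx proteins, the forkhead domain in Fox proteins, the HMG box in Sox proteins and the ETS domain in Ehf, Elf and Etv proteins. In the embryo Hox genes mark position along the body axis, Foxa1 acts in endoderm and later in urothelium and airway, Tbx1 takes part in the pharyngeal region from which the thymus forms, and Dlx genes pattern the branchial arches and appendages. In stratified epithelia Barx2, Dlx3, Ehf, Elf3 and Elf5 are linked to differentiation and hair, and Etv4 and Etv5 are common targets of FGF and ERK signalling. Because such genes are often kept on or off according to the origin of a cell, they bear on the question of whether cells moved into skin keep the expression of their tissue.

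Promoter sequence is shown for 3 genes whose levels behaved differently below: Isl1, whose order among the non-hair tissues was the same in both rounds, Hoxa3, which fell in trachea alone among the tissues tested, and Elf3, which was found in every sample. Each line gives the 250 bases before the RefSeq transcript start on the GRCr8 rat assembly, written on the strand of the gene with CG dinucleotides in capitals. All 3 genes lie on the minus strand, Isl1 at chr2:49823443-49823692, Hoxa3 at chr4:82643832-82644081 and Elf3 at chr13:49247087-49247336.
Isl1: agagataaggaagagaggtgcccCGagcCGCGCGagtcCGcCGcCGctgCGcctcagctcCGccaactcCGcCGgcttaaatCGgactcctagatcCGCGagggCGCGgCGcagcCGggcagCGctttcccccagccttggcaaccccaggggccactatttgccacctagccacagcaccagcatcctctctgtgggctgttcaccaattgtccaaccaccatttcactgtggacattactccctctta
Hoxa3: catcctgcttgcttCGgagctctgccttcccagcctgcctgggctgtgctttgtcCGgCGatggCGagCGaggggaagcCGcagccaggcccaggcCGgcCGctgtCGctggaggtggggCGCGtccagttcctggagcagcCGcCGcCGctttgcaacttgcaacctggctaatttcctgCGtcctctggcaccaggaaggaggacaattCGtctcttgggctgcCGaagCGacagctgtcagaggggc
Elf3: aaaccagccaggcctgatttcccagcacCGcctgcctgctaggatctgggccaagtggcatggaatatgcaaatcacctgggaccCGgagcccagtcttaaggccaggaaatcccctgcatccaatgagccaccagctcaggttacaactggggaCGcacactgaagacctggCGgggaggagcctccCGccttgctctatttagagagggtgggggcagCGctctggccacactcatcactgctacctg

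The Isl1 window holds 19 CG dinucleotides and the Hoxa3 window 18, while that of Elf3 holds 6. Of 33469 rat promoter windows of this length, which hold a median of 5, at least as many CG dinucleotides are found in 18.4%, 20.1% and 49.8%, respectively. RefSeq promoter windows were at hand for 9 of the 23 members. Among the others, Etv5 with 27 and Dlx1 and Irx4 with 22 each are rich in CG, and Etv1 with 6 and Tbx1 with 8 lie near the middle of all promoters. Several members lie side by side in the genome with no protein-coding gene between them on the GRCr8 assembly, namely Dlx1 and Dlx2, Dlx3 and Dlx4, Dlx5 and Dlx6, Hoxb3 and Hoxb4, and Ehf and Elf5.

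The reads counted on genes numbered 20723083 to 29824855 per sample, and 3 counts, taken as the floor of detection and as the level that a count of 0 still allows, corresponded to between 0.099 and 0.143 CPM, the counts scaled to a common library total. Epithelial markers were present in every sample, with the 6 of 10 listed genes that could be paired with an identifier (Cdh1, Epcam, Col17a1, Krt19, Krt8 and Krt18) summing to between 2320 and 6460 CPM and none at 0. The tissue labels could be checked only in part. Upk1b, a uroplakin of bladder, was at a mean of 179 CPM in bladder cells before transplantation but also at 131 CPM in trachea and 144 CPM in thymus, and markers of trachea and thymic epithelium are not analysed here. The summed level of 6 collagen and matrix genes of fibroblasts (of 10 listed, none at 0) went from between 325 and 394 to between 71.7 and 80.2 CPM in bladder and from between 457 and 475 to between 133 and 144 CPM in trachea, and lay between 84.2 and 160 CPM in all other groups. The 4 paired immune markers of 5 listed went from a mean of 25.7 to 64.2 CPM in trachea and from 62.8 to 20 CPM in vagina, with Cd86 at 0 in whisker cells. Acta2, a smooth muscle actin, went from a mean of 1.59 to 15.7 CPM in thymus. The part of these other cell markers in the changes below was not tested, and in such bulk samples fewer cells of a type and less RNA per cell cannot be told apart.

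The plot of levels in the 20 samples gives an overview of the 23 genes.

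**Figure D1:**
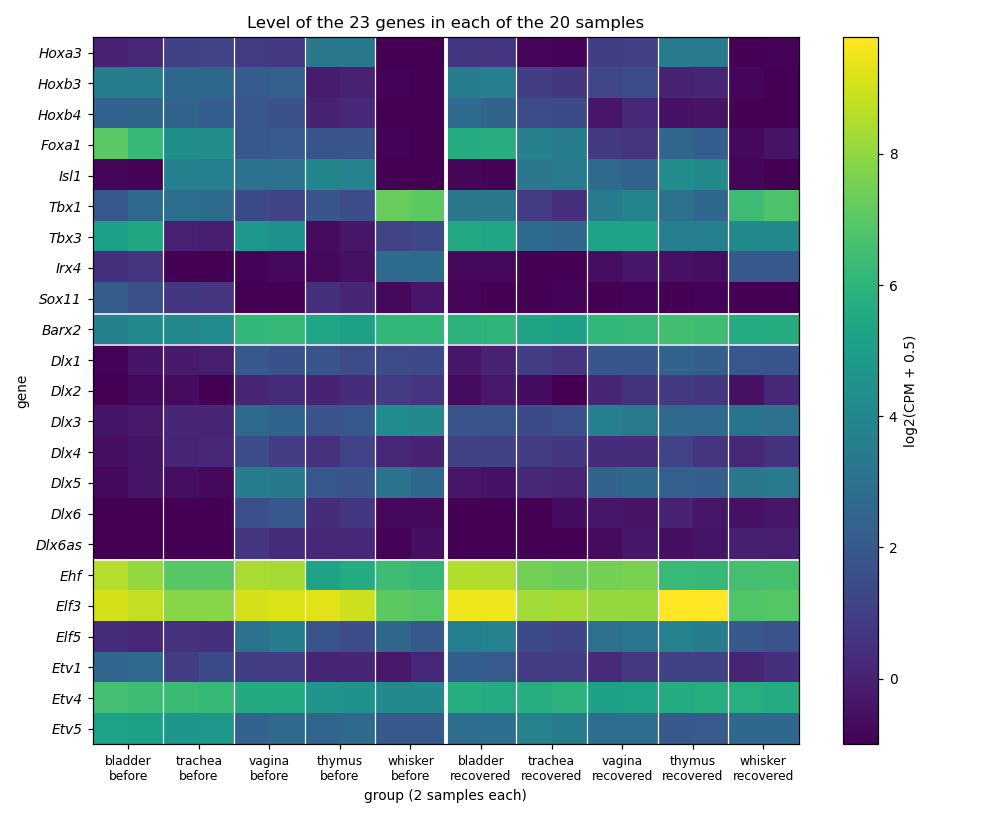
Level of each of the 23 genes (rows) in each of the 20 samples (columns, 2 per group), as colour on a log2(CPM + 0.5) scale; values are comparable along a row, not between genes, because gene lengths are not accounted for. Hoxb3, Hoxb4 and Foxa1 are darkest in whisker cells of both rounds, Isl1 is dark in both whisker and bladder cells and Hoxa3 in whisker and recovered trachea cells, Tbx1 and Irx4 are brightest there, and Tbx3 turns brighter in recovered trachea, thymus and whisker cells.

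A change was called at an adjusted p under 0.05 and at least 2-fold in limma voom. After transplantation, 9 of the 23 members changed in bladder, 6 up and 3 down, where 21.1% of all genes tested and 43.1% of genes with a symbol changed. In trachea 11 changed, 6 up and 5 down, beside 12.4% of all genes and 27.6% of those with a symbol. In vagina 8 changed, 2 up and 6 down, beside 11.8% and 26.8%. In thymus 10 changed, 6 up and 4 down, beside 15.4% and 33.9%, and in whisker cells 5 changed, 3 up and 2 down, beside 5.98% and 15.4%. The median log2 change of the members was 0.17 in bladder, 0.07 in trachea, -0.39 in vagina, 0.61 in thymus and 0.48 in whisker cells. The median of all genes tested lay between -0.01 and 0.02. For genes with a symbol it was 0.04 in bladder, -0.05 in trachea, -0.11 in vagina, 0.11 in thymus and -0.02 in whisker cells. The member medians take in genes at or under the floor. In trachea the member median is the fitted value of Irx4 and Dlx6as, which had no read there, so its sign carries no meaning. In bladder the share of members called was not above that of genes with a symbol, which were chosen in the same way.

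Of the 115 member and tissue combinations, 43 were called, beside 13.3% over all genes tested and 29.3% over genes with a symbol. At least 1 tissue had a call for 20 of the 23 genes, beside 35.2% and 71%. The 3 that were not were Isl1, Dlx2 and Ehf. Of these 20, 14 were called in 2 or more tissues, as were 19.1% of all genes and 43.9% of genes with a symbol. Tbx1, Dlx3, Dlx4, Dlx6as and Irx4, 5 of the 23, were called up in 1 tissue and down in another, beside 8.38% of all genes and 20.6% of genes with a symbol. That share of the members is near that of the genes with a symbol. The change differed among the 5 tissues for all 23 genes in a moderated F test of the interaction of round and tissue (adjusted p between 2.3e-10 and 0.043), a test that 78.8% of all genes and 87.5% of genes with a symbol also passed.

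**Figure D2:**
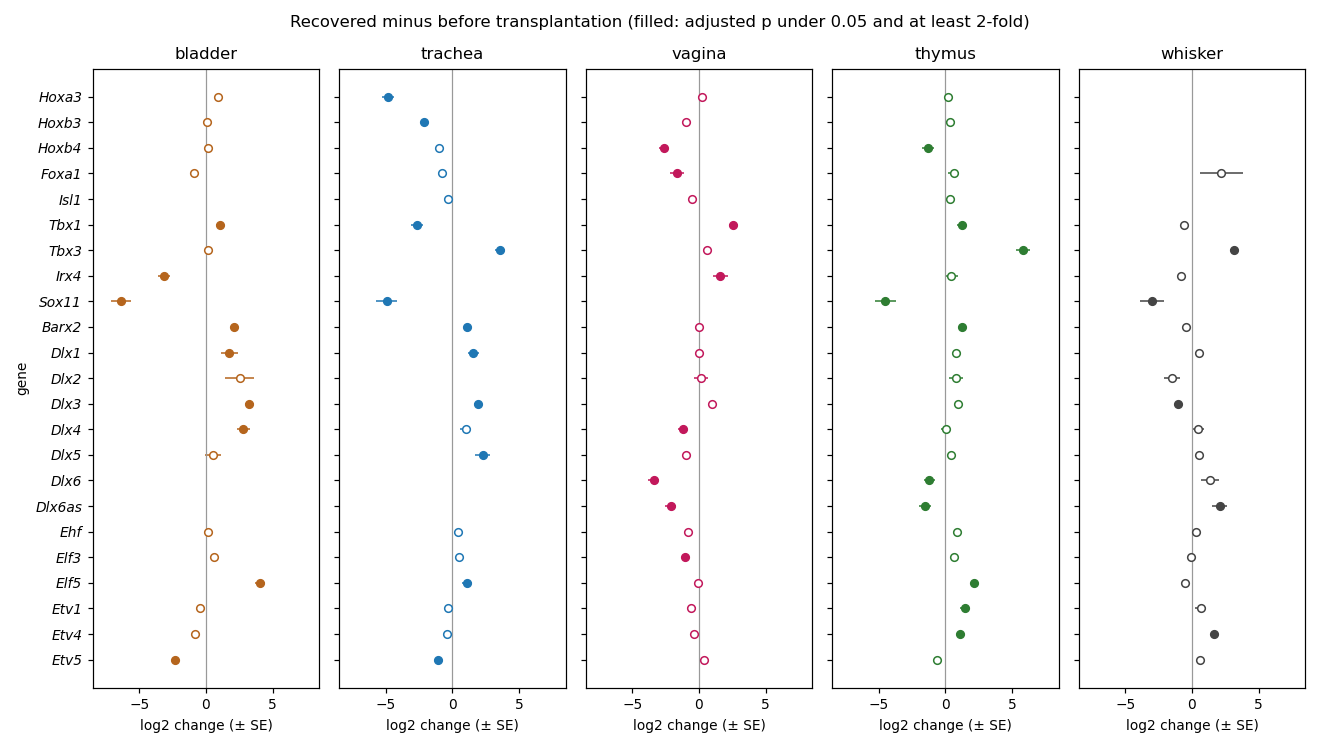
Log2 change after transplantation (recovered minus before) of each gene in each tissue, with its standard error; filled points are called at an adjusted p under 0.05 and at least 2-fold, and genes at or under 3 counts in both groups have no point. Etv5, Irx4 and Sox11 lie to the left in bladder, Tbx1 lies to the left in trachea and to the right in bladder, vagina and thymus, and Tbx3 lies far to the right in thymus.

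Hoxa3, Hoxb3 and Hoxb4, the Hox genes among the members, were found in the 4 non-hair tissues before transplantation. In whisker cells they were at or under the floor, and no sample of either round held more than 0.046 CPM. They were taken from a list of genes that differ from whisker cells, so this contrast follows from their selection. It does not extend to Hox genes outside the members. Hoxa3, a gene of the anterior group that is needed for thymus formation, was highest in thymus, at 9.29 and 9.32 CPM before transplantation and 10.4 and 10.3 CPM afterwards. In trachea it was at 1.69 and 1.81 CPM before transplantation and at 0.047 and 0.0365 CPM, with 2 counts in all, in recovered cells. The 2 pairs did not overlap, and the fall in trachea was 4.84 ± 0.46 on the log2 scale (SE, adjusted p = 5.5e-07). The ratio of recovered to before was 0.0238, with a 95% counting interval from 0.0028 to 0.0873. In vagina Hoxa3 was at 1.41 and 1.24 CPM and then 1.51 and 1.53 CPM, and in bladder at 0.485 and 0.69 CPM and then 1.14 and 1.08 CPM, neither of which was called, though the bladder change of 0.93 ± 0.29 was 1.16 and called without sample 2 before transplantation (adjusted p = 0.015). The change in trachea differed from that in bladder by -5.77 ± 0.55, from that in vagina by -5.03 ± 0.51 and from that in thymus by -5.00 ± 0.47 (log2, SE, adjusted p of 1.4e-06 or less).

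Hoxb3 and its neighbour Hoxb4 both had their highest mean in bladder in both rounds and were low in thymus. Before transplantation Hoxb4 in bladder did not differ beyond its spread from trachea (adjusted p = 0.64). Hoxb3 was at 10.9 and 11.4 CPM in bladder before transplantation and at 11.3 and 11.8 CPM in recovered cells, which overlap. In trachea it was at 5.5 and 5.83 CPM and then at 1.46 and 1.17 CPM, a fall of 2.12 ± 0.22 on the log2 scale (SE, adjusted p = 1.5e-06) between groups that did not overlap. Hoxb4 in trachea went from 4.88 and 4.1 CPM to 2.35 and 2.19 CPM, a log2 change of -0.98 ± 0.21 (adjusted p = 0.0015) that was just short of 2-fold and passed it without sample 2 before transplantation (-1.11) or without recovered sample 1 (-1.03).

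In vagina Hoxb4 fell, from 3.29 and 2.7 CPM to 0.293 and 0.696 CPM, by 2.64 ± 0.34 on the log2 scale (SE, adjusted p = 1.4e-05), and by 3.26 without recovered sample 2. Hoxb3 in vagina went from 3.94 and 4.43 CPM to 1.97 and 2.33 CPM (log2 change -0.94 ± 0.2, adjusted p = 0.0011), which passed 2-fold without sample 1 before transplantation (-1.05) or without recovered sample 2 (-1.07). In thymus Hoxb4 was low throughout, at 0.516 and 0.663 CPM and then 0.212 and 0.231 CPM, and its called fall of 1.33 ± 0.47 (adjusted p = 0.029) lost its call without sample 2 before transplantation (-1.15, adjusted p = 0.11), without recovered sample 1 (-1.31, adjusted p = 0.098) or without recovered sample 2 (-1.39, adjusted p = 0.11).

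**Figure D3:**
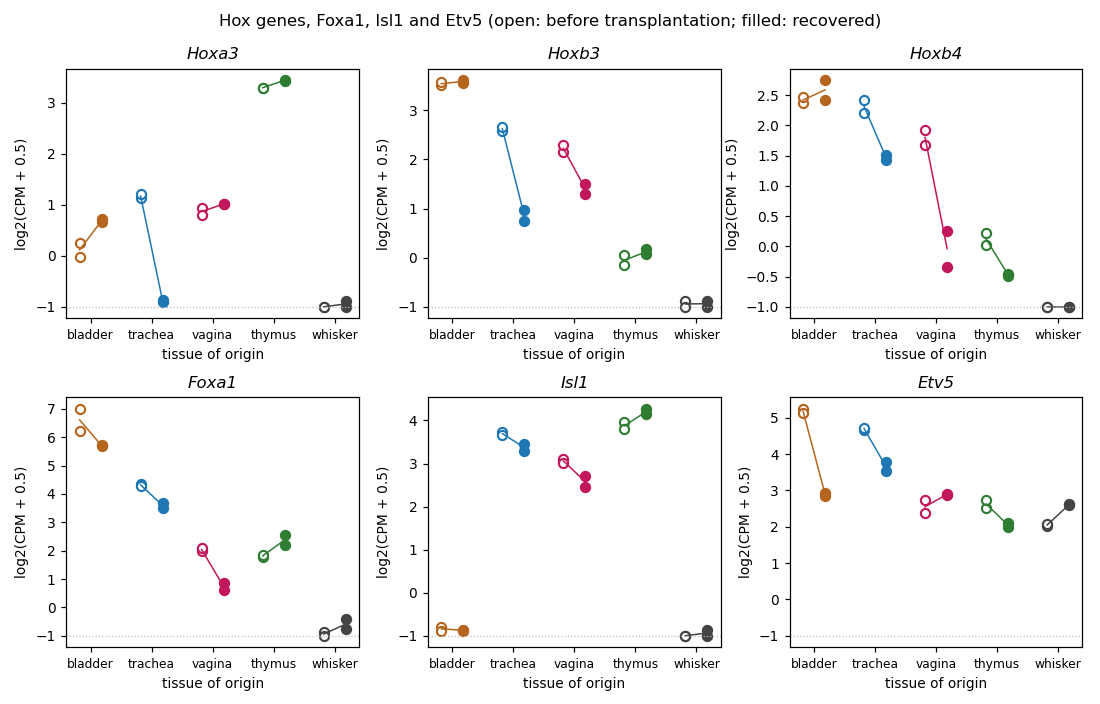
Levels of the 3 Hox genes, Foxa1, Isl1 and Etv5 in each sample, as log2(CPM + 0.5) on axes of their own, by tissue; open circles are cells before transplantation, filled circles recovered cells, lines join the group means, and the dotted line marks 0 CPM. Hoxa3 drops to near 0 in recovered trachea cells, Etv5 drops in recovered bladder and trachea cells, and Isl1 keeps its order of tissues.

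Foxa1, a pioneer factor of endodermal epithelia, was highest in bladder, followed by trachea, in both rounds. In bladder it was at 128 and 74.3 CPM before transplantation and 51 and 52.5 CPM in recovered cells. In trachea it was at 19.9 and 19.1 CPM and then 12.3 and 10.9 CPM, and in thymus at 2.94 and 3.11 CPM and then 5.35 and 4.13 CPM. These changes were not called, but without sample 2 before transplantation the bladder change went from -0.92 ± 0.17 to -1.31 (log2, adjusted p = 9.2e-09), which is called. In vagina Foxa1 went from 3.44 and 3.77 CPM to 1.3 and 1.04 CPM, a called fall of 1.62 ± 0.53 (SE, adjusted p = 0.024) that lost its call without any of the 4 vagina samples, with values between -1.77 and -1.45 and adjusted p between 0.054 and 0.14. The order of bladder over trachea was larger than the spread between samples in both rounds (adjusted p of 4e-08 and 4e-07), and in whisker cells no sample held more than 0.246 CPM.

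Isl1, a LIM-homeodomain factor of pharyngeal and other progenitors, had the same order in both rounds, thymus over trachea over vagina over bladder. In thymus it was at 15 and 13.4 CPM before transplantation and 18.8 and 17.2 CPM afterwards, in trachea at 12.7 and 12.2 CPM and then 9.3 and 10.4 CPM, and in vagina at 8.07 and 7.62 CPM and then 6.03 and 4.94 CPM. No bladder or whisker sample held more than 0.0747 CPM. Thymus and trachea, neighbours in that order, did not differ beyond their spread before transplantation (adjusted p = 0.14) but did in recovered cells (adjusted p = 7.3e-06). No change of Isl1 after transplantation was called, the log2 changes being -0.33 ± 0.12 in trachea, -0.53 ± 0.14 in vagina and 0.33 ± 0.1 in thymus (SE).

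The T-box genes Tbx1 and Tbx3 were called in 4 and 3 tissues, respectively. Tbx1, which is needed for the pharyngeal arches and is also expressed in hair follicle cells, was highest in whisker cells, at 154 and 135 CPM before transplantation and 83.2 and 107 CPM afterwards. In trachea it went from 7.04 and 6.52 CPM to 1.36 and 0.875 CPM, a fall of 2.64 ± 0.44 on the log2 scale (SE, adjusted p = 0.00017). In vagina it went the other way, from 2.18 and 1.91 CPM to 10.5 and 13.8 CPM, a rise of 2.56 ± 0.34 (adjusted p = 2.1e-05).

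Tbx1 also rose in thymus, from 3.1 and 2.44 CPM to 7.81 and 5.51 CPM (1.22 ± 0.33, adjusted p = 0.0057), and in bladder, from 3.4 and 6.08 CPM to 9.09 and 9.47 CPM (1.05 ± 0.27, adjusted p = 0.0036). Within each of these tissues the 2 rounds did not overlap. The bladder rise was lost without sample 1 before transplantation (0.61, adjusted p = 0.086) and was under 2-fold in edgeR (0.99) and DESeq2 (0.95), and the thymus rise was under 2-fold without recovered sample 1 (0.97) and had an adjusted p of 0.13 with sample quality weights. The trachea change differed from that in vagina by -5.20 ± 0.56, from that in thymus by -3.86 ± 0.55 and from that in bladder by -3.70 ± 0.52 (log2, SE, adjusted p between 2.2e-06 and 4.9e-05). Before transplantation trachea stood first among the non-hair tissues, though not beyond its spread from bladder (adjusted p = 0.093), and in recovered cells it stood last, below thymus (adjusted p = 0.00012).

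Tbx3, a T-box repressor linked to progenitor maintenance, rose in thymus, trachea and whisker cells, where it had been lowest. In thymus it was at 0.119 and 0.29 CPM before transplantation, with 10 counts in all, and at 11.6 and 12.1 CPM in recovered cells. In trachea it went from 0.5 and 0.443 CPM to 6.34 and 5.4 CPM, and in whisker cells from 1.83 and 2.11 CPM to 17.6 and 17.5 CPM. The rises were 5.85 ± 0.52 in thymus, 3.57 ± 0.41 in trachea and 3.15 ± 0.26 in whisker cells (log2, SE, adjusted p of 1.4e-07, 4.5e-06 and 2.5e-07), and the thymus rise was 5.25 without sample 1 before transplantation.

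In bladder Tbx3 was at 33.4 and 44 CPM and then at 45.4 and 40.6 CPM, which overlap, and in vagina at 26.3 and 22.5 CPM and then 37.1 and 37.6 CPM, a log2 change of 0.61 ± 0.12 that was under 2-fold. In recovered cells bladder and vagina no longer differed beyond their spread (adjusted p = 0.14), while they had before (adjusted p = 0.00016). Acta2 went from a mean of 1.59 to 15.7 CPM in thymus, from 3.22 to 1.97 CPM in trachea and from 0.489 to 0.31 CPM in whisker cells. The part of cells with Acta2 in the rises of Tbx3 was not tested.

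**Figure D4:**
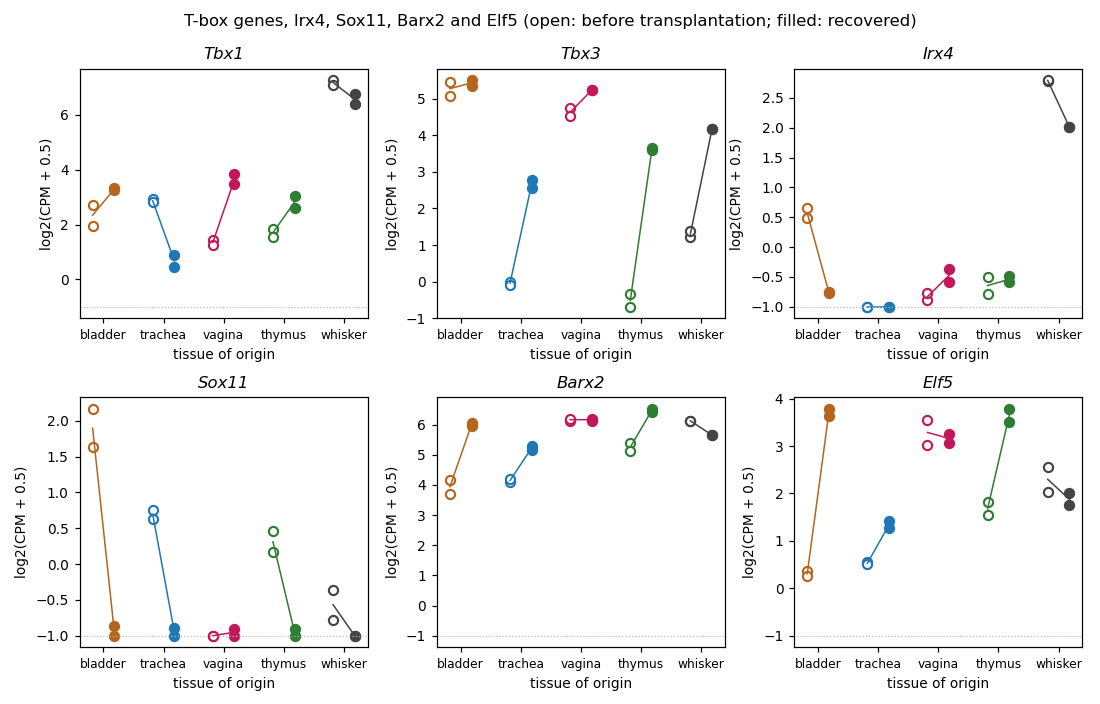
Levels of Tbx1, Tbx3, Irx4, Sox11, Barx2 and Elf5 in each sample, as log2(CPM + 0.5) on axes of their own, by tissue; open circles are cells before transplantation, filled circles recovered cells, lines join the group means, and the dotted line marks 0 CPM. Tbx1 falls in trachea and rises in bladder, vagina and thymus, Tbx3 rises in trachea, thymus and whisker cells, and Sox11 reaches 0 or nearly so in every recovered group.

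Irx4, an Iroquois homeodomain factor best known from the heart ventricle, was highest in whisker cells, at 6.4 and 6.47 CPM before and 3.55 and 3.52 CPM after transplantation (log2 change -0.86 ± 0.16, under 2-fold). In trachea no read was counted in any of the 4 samples. In bladder it fell from 0.896 and 1.08 CPM to 0.0952 and 0.0861 CPM, with 49 and 4 counts, a ratio of 0.0919 with a counting interval from 0.0242 to 0.252 (adjusted p = 2.2e-05). In vagina, with 3 and 12 counts, the called rise of 1.60 ± 0.55 (adjusted p = 0.029) was lost without sample 1 before transplantation (1.09, adjusted p = 0.26) or recovered sample 2 (1.27, adjusted p = 0.18).

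Sox11, an HMG-box factor of embryonic and progenitor cells, was found before transplantation and was almost absent afterwards. Sox11 reached 1 CPM, the limit for testing, only in bladder and trachea samples before transplantation. Falls there were therefore favoured by the way Sox11 entered the test. Before transplantation it was at 3.99 and 2.59 CPM in bladder, 1.19 and 1.05 CPM in trachea and 0.873 and 0.621 CPM in thymus, and in vagina no read was counted. Among the 10 recovered samples, none held more than 0.0476 CPM, which is 1 count. Both samples before transplantation lay above both recovered samples in bladder, trachea, thymus and whisker cells.

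The ratio of recovered to before was 0.00724 in bladder (1 count against 167, counting interval from 0.00017 to 0.0382), 0.0163 in trachea (1 against 57, from 0.000456 to 0.106) and 0.0221 in thymus (1 against 37, from 0.000611 to 0.147), with adjusted p of 1.8e-06, 9.2e-05 and 2e-04. With so few recovered counts the fitted log2 change moved when a recovered sample was left out, to -7.26 without sample 1 and -5.53 without sample 2 in bladder, to -5.60 without sample 2 in trachea and to -5.18 without sample 2 in thymus. In whisker cells, with 8 counts against 0, Sox11 was called by its fitted log2 change of -3.01 ± 0.9 (SE, adjusted p = 0.021). Against the floor of 3 counts it was at least 1.39-fold lower in recovered cells, so the counts do not show a 2-fold fall. The call held without sample 1 before transplantation (-3.81). It was lost without sample 2 (-2.26), without recovered sample 1 (-3.10) or without recovered sample 2 (-2.93). The summed fibroblast genes went from a mean of 359 to 76 CPM in bladder and from 466 to 139 CPM in trachea. In thymus they went from 96.5 to 139 CPM and in whisker cells from 143 to 134 CPM. Their part in the falls of Sox11 was not tested.

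Barx2, a homeodomain factor of hair follicle and other epithelia, rose in the tissues in which it had been lower. It went from 12.5 and 17.5 to 61.1 and 66.2 CPM in bladder, from 16.4 and 18 to 38.6 and 35.2 CPM in trachea and from 41.4 and 34 to 91.3 and 85.3 CPM in thymus. In these 3 tissues the groups did not overlap, and the rises were 2.11 ± 0.13, 1.10 ± 0.13 and 1.23 ± 0.11 (log2, SE, adjusted p of 8.4e-10, 4.5e-06 and 1.2e-07). In vagina it was at 69.3 and 72.8 CPM and then at 69.4 and 72.7 CPM, a log2 change of 0.00 ± 0.1. In whisker cells, at 68.9 and 69.6 CPM before transplantation, it was at 49.4 and 49.9 CPM in recovered cells, a change of -0.48 ± 0.11 that was under 2-fold. The highest of the non-hair tissues was 4.73-fold above the lowest before transplantation and 2.39-fold above it in recovered cells.

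The Dlx genes lie in neighbouring pairs, and calls were made for either member of a pair or for both. Dlx3, which is needed for hair and epidermal differentiation, was highest in whisker cells before transplantation, at 18.3 and 16.5 CPM. It rose in bladder from 0.261 and 0.345 to 3.05 and 3.01 CPM and in trachea from 0.615 and 0.604 to 2.16 and 2.63 CPM, by 3.26 ± 0.35 and 1.95 ± 0.3 on the log2 scale (SE, adjusted p of 8e-07 and 8.2e-05). It fell in whisker cells to 8.52 and 7.94 CPM (-1.08 ± 0.12, adjusted p = 5.2e-06). All 3 changes were between groups that did not overlap.

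In vagina and thymus Dlx3 came close to the 2-fold limit, with changes of 0.99 ± 0.13 and 0.93 ± 0.17 (adjusted p of 2e-05 and 0.00028). Without vagina sample 1 before transplantation or recovered sample 2 the first was 1.12, and without thymus sample 2 before transplantation the second was 1.07. Its neighbour Dlx4 rose in bladder from 0.187 and 0.259 to 1.62 and 1.68 CPM (2.81 ± 0.5, adjusted p = 0.00014) but went from 2.45 and 1.42 to 0.796 and 0.8 CPM in vagina, a called fall of 1.23 ± 0.36 (adjusted p = 0.013). In trachea Dlx4 went from 0.577 and 0.684 to 1.36 and 1.2 CPM (1.00 ± 0.4, adjusted p = 0.059), and in thymus and whisker cells it lay between 0.515 and 1.78 CPM. The vagina fall lost its call without sample 1 before transplantation (-0.83, adjusted p = 0.17) or without either recovered sample (adjusted p of 0.061 and 0.078).

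Dlx5 and Dlx6, an adjoining pair that acts in branchial arch and appendage patterning, were found mainly in vagina and thymus among the non-hair tissues. Dlx6 was at 2.64 and 3.37 CPM in vagina before transplantation and at 0.293 and 0.244 CPM in recovered cells, a fall of 3.39 ± 0.42 on the log2 scale (SE, adjusted p = 8.7e-06) and an 11.2-fold difference. In bladder no read of Dlx6 was counted, and in trachea 4 reads were counted in all. Dlx6 reached 1 CPM, the limit for testing, only before transplantation, in both vagina samples and thymus sample 2. Falls there were therefore favoured by the way the gene entered the test. Dlx5 in vagina went from 11.2 and 9.7 to 4.86 and 5.78 CPM, a change of -0.97 ± 0.16 (adjusted p = 0.00016), which passed 2-fold without sample 2 before transplantation (-1.07) or without recovered sample 2 (-1.10). In thymus the called fall of Dlx6, from 0.794 and 1.12 to 0.552 and 0.297 CPM (-1.21 ± 0.43, adjusted p = 0.027), was lost without sample 2 before transplantation (-0.97, adjusted p = 0.12) or recovered sample 2 (-0.77, adjusted p = 0.27).

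In trachea Dlx5 rose from 0.154 and 0.0805 to 0.657 and 0.584 CPM, 6 against 30 counts, with a ratio of 5.3 and a counting interval from 2.14 to 15.3 (adjusted p = 0.0053), and without sample 2 before transplantation the adjusted p was 0.061. In whisker cells Dlx5 was at 7.98 and 5.53 CPM and then 9.35 and 10.2 CPM, which was under 2-fold. Dlx6as, the antisense transcript at Dlx6, was at 1.11 and 0.842 CPM in vagina before transplantation and 0.126 and 0.313 CPM afterwards (log2 change -2.14 ± 0.43, adjusted p = 0.00092, and -2.76 without recovered sample 2). Dlx6as reached 1 CPM, the limit for testing, only in vagina sample 1 before transplantation. Its fall in vagina was therefore favoured by the way it entered the test and is a description. It fell in thymus from 0.675 and 0.663 to 0.17 and 0.264 CPM (-1.55 ± 0.44, adjusted p = 0.0087), a call lost without recovered sample 1 (-1.32, adjusted p = 0.066). In whisker cells, with 5 and 21 counts, it rose by 2.08 ± 0.55 (adjusted p = 0.01), by 2.93 without sample 2 before transplantation and, with the call lost, by 1.18 without sample 1 (adjusted p = 0.18). The libraries were made with a stranded kit, but the sources used here do not say whether reads were counted by strand, and if they were not, reads of Dlx6 and Dlx6as cannot be told apart.

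Dlx1 was at 3.48 and 2.75 CPM in vagina and 3.02 and 2.28 CPM in thymus before transplantation and lower in trachea and bladder. It rose in trachea from 0.346 and 0.443 to 1.46 and 1.02 CPM (1.57 ± 0.44, adjusted p = 0.0095), a call lost without sample 1 before transplantation (1.39, adjusted p = 0.085) or recovered sample 1 (1.34, adjusted p = 0.062). Its called rise in bladder, with 7 against 18 counts (1.76 ± 0.64, adjusted p = 0.027), was 2.87 without sample 2 before transplantation and was lost without sample 1 (0.55, adjusted p = 0.46) or without recovered sample 2 (1.34, adjusted p = 0.17). Its neighbour Dlx2 was the Dlx gene with no call in any tissue, at 1.33 CPM or less in every sample. In whisker cells Dlx2 was at 1.33 and 1.08 CPM and then at 0.23 and 0.696 CPM, which did not overlap and were not called (-1.50 ± 0.61, adjusted p = 0.083). In bladder Dlx2 had 2 and 11 counts (2.52 ± 1.1, adjusted p = 0.055), and its change was called without sample 2 before transplantation (3.74, adjusted p = 0.047) or recovered sample 1 (3.07, adjusted p = 0.041).

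**Figure D5:**
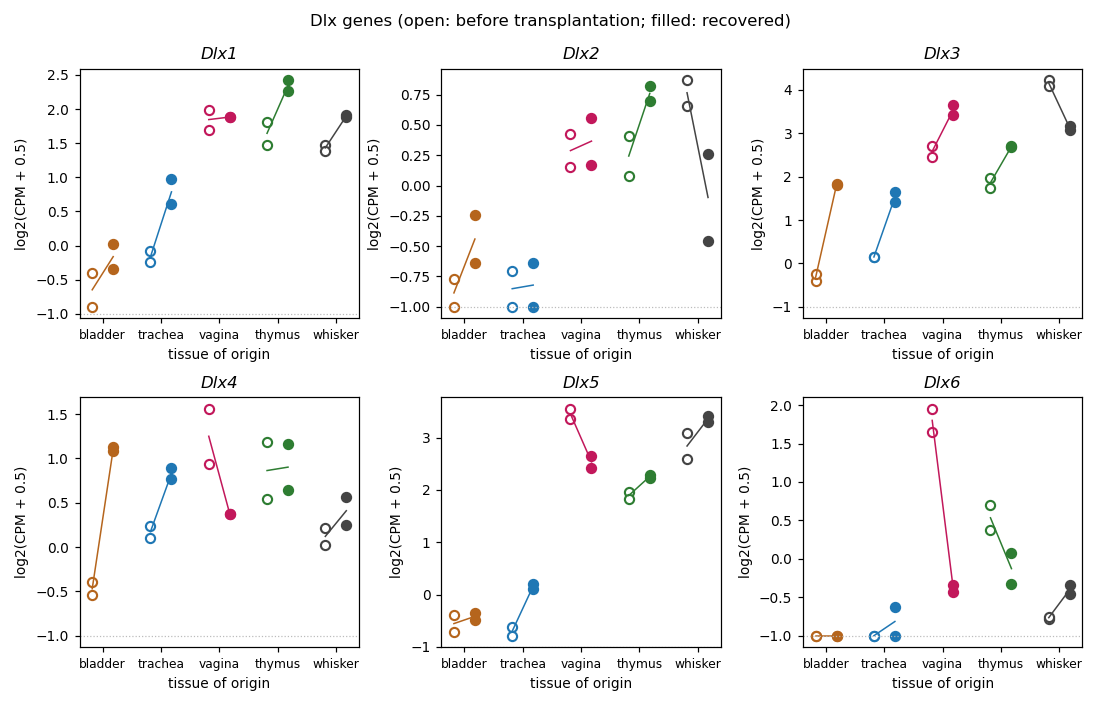
Levels of the 6 Dlx genes in each sample, as log2(CPM + 0.5) on axes of their own, by tissue; open circles are cells before transplantation, filled circles recovered cells, lines join the group means, and the dotted line, where drawn, marks 0 CPM. Dlx3 rises in bladder and trachea and falls in whisker cells, Dlx4 rises in bladder, and Dlx6 falls in vagina.

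Among the epithelial ETS factors, Elf5, a factor of mammary, placental and keratinocyte differentiation, had 3 called rises. It went from 0.784 and 0.69 to 12 and 13.2 CPM in bladder, a 17.1-fold rise (log2 change 4.06 ± 0.37, SE, adjusted p = 9.6e-08), and from 3.02 and 2.4 to 13.3 and 10.9 CPM in thymus, a 4.46-fold rise (2.13 ± 0.24, adjusted p = 1.7e-06). In vagina it was at 7.65 and 11.2 CPM and then at 7.92 and 9.01 CPM, which overlap, and in whisker cells at 5.41 and 3.61 CPM and then at 3.5 and 2.87 CPM, which was not called. In trachea it went from 0.961 and 0.925 to 2.16 and 1.9 CPM, a called rise of 1.08 ± 0.39 (adjusted p = 0.038) that was lost when any of the 4 trachea samples was left out (0.99 to 1.18, adjusted p between 0.076 and 0.14). Bladder did not differ beyond its spread from trachea before transplantation (adjusted p = 0.57) or from thymus in recovered cells (adjusted p = 0.68).

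Ehf, the neighbour of Elf5, was called in no tissue. In bladder it was at 378 and 272 CPM and then at 366 and 356 CPM (0.17 ± 0.13), which overlap. In thymus it went from 36.6 and 49.7 to 76.8 and 74.8 CPM (0.83 ± 0.14), and 1.06 without sample 2 before transplantation, and in vagina from 342 and 319 to 185 and 193 CPM (-0.80 ± 0.13). Elf3, an ETS factor of simple and stratified epithelia, was found at 116 CPM or more in every sample and was lowest in whisker cells. It fell in vagina, from 539 and 569 to 271 and 265 CPM (-1.05 ± 0.098, adjusted p = 4.1e-07), and its changes in the other tissues were under 2-fold, the largest being 0.65 ± 0.099 in thymus, from 625 and 495 to 877 and 865 CPM.

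The Etv genes of the PEA3 group, which respond to FGF and ERK signalling, were highest in bladder before transplantation. Etv5 was at 37.5 and 34.3 CPM in bladder and 25.1 and 26 CPM in trachea, and in recovered cells at 6.76 and 7.19 CPM and 13.2 and 11.1 CPM. The falls were 2.36 ± 0.12 and 1.09 ± 0.11 on the log2 scale (SE, adjusted p of 1.6e-10 and 7.6e-07), larger in bladder by 1.27 ± 0.16 (adjusted p = 2e-05), and the trachea fall was 0.95 and so under 2-fold without recovered sample 2. The summed fibroblast genes were also lower in recovered bladder and trachea cells, from a mean of 359 to 76 CPM and from 466 to 139 CPM. Their part in the falls of Etv5 was not tested. In vagina, thymus and whisker cells Etv5 lay between 3.48 and 7.03 CPM in both rounds.

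Etv4 went in the opposite direction in thymus and whisker cells, where it had been lowest. It rose from 24 and 22.9 to 49.3 and 51.4 CPM in thymus and from 16.5 and 17 to 55.9 and 49.5 CPM in whisker cells, by 1.10 ± 0.092 and 1.65 ± 0.099 (log2, SE, adjusted p of 7.3e-08 and 9.4e-09). In bladder it went from 93.2 and 86.7 to 51.6 and 49.2 CPM, a change of -0.84 ± 0.082 (adjusted p = 2.7e-07) that was under 2-fold. The highest non-hair tissue was 3.84-fold above the lowest before transplantation and 1.56-fold above it in recovered cells. Etv1 was highest in bladder in both rounds, at 5.26 and 5.86 CPM and then 4.19 and 3.75 CPM, and rose in thymus from 0.595 and 0.621 to 1.7 and 1.65 CPM (1.43 ± 0.34, adjusted p = 0.0026, and 0.11 with sample quality weights). In trachea, vagina and whisker cells it lay between 0.333 and 2.17 CPM, with no call.

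Across the 4 non-hair tissues, 98 of the 138 member and pair differences were called before transplantation, beside 20.7% of such differences over all genes tested and 41.7% over genes with a symbol. In recovered cells 77 of 138 were called, beside 17.6% and 35.6%. The 2 rounds therefore differed in count in the same direction as the genes at large, and the difference between them was not tested. For 12 of the 23 genes the same non-hair tissue had the highest mean in both rounds. These were Foxa1, Hoxb3, Hoxb4, Tbx3, Etv1 and Sox11 (bladder), Hoxa3, Isl1 and Elf3 (thymus) and Dlx3, Dlx5 and Dlx6as (vagina), and Sox11 is among them with a single count in recovered bladder cells. For 7 of the 12 the first tissue did not differ beyond the spread from the next in 1 round or in both. Before transplantation this held for Elf3 (adjusted p = 0.97), Hoxb4 (0.64), Dlx6as (0.23) and Isl1 (0.14). In recovered cells it held for Sox11 (adjusted p = 0.96), Dlx6as (0.93), Dlx5 (0.15) and Tbx3 (0.14), with Elf3 at the threshold (0.05).

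The change in trachea was compared with that in each of the other non-hair tissues. It differed for 11 members against bladder, 15 against vagina and 10 against thymus, beside 12.6%, 17.2% and 17.5% of all genes tested, and 27%, 33% and 34.6% of genes with a symbol. Tbx1, Tbx3, Hoxa3 and Hoxb3 differed against all 3.

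As a description of the values that made the gene lists, 9 members were higher in all 4 non-hair tissues than in whisker cells before transplantation by mean CPM, namely Elf3, Etv1, Etv4, Etv5, Foxa1, Hoxa3, Hoxb3, Hoxb4 and Isl1. For Isl1 this rests in bladder on 3 counts against 0 in whisker cells, both at or under the floor. Dlx2, Dlx3, Irx4 and Tbx1 were lower in all 4. In recovered cells Etv4 was higher than in whisker cells in only 1 of the 4 tissues, and Irx4 and Tbx1 were again lower in all 4.

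Of 29 other transcription factors, listed with results of these data known, 13 rose and 5 fell in bladder, 5 rose and 5 fell in trachea, 3 rose and 7 fell in vagina, 9 rose and 4 fell in thymus, and 6 rose and 2 fell in whisker cells. Beside these and the next 2 lists stand, as for the members, shares called of 21.1% of all genes tested and 43.1% of genes with a symbol in bladder, 12.4% and 27.6% in trachea, 11.8% and 26.8% in vagina, 15.4% and 33.9% in thymus and 5.98% and 15.4% in whisker cells. The median log2 change of the 29 was 0.83 in bladder and lay between -0.21 and 0.34 in the other tissues. Medians of all genes lay between -0.01 and 0.02, and those of genes with a symbol between -0.11 and 0.11. Esr1, the estrogen receptor, fell in vagina from a mean of 18.9 to 0.725 CPM (log2 change -4.67 ± 0.32, adjusted p = 1.3e-08). Cdx2, an intestinal homeodomain factor, rose in thymus from 2.26 to 35.1 CPM (3.99 ± 0.22, adjusted p = 6e-10). Eya1, a transcriptional coactivator, fell in thymus from 40.5 to 7.18 CPM (-2.48 ± 0.16, adjusted p = 3.2e-09).

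Of 9 feedback and response genes of ERK signalling, the pathway to which Etv4 and Etv5 respond, 5 rose and 1 fell in bladder, 2 rose and 1 fell in trachea, 0 were called in vagina by limma, edgeR or DESeq2 (4 at an unadjusted p under 0.05), 1 rose and 2 fell in thymus, and 3 rose in whisker cells. Egr1, Egr2 and Egr3, which all rose in bladder, are also in the list of other transcription factors, so the bladder counts of these lists are not separate. The median log2 change of the 9 was 1.46 in bladder and lay between -0.35 and 0.45 elsewhere. In bladder the ligand gene Ereg rose from a mean of 15.1 to 142 CPM (3.23 ± 0.14) and Egr3, an immediate early gene, from 12.5 to 54.2 CPM (2.12 ± 0.14). Dusp4, a phosphatase of ERK, fell in bladder from 52.2 to 9.35 CPM (-2.49 ± 0.12) and rose in thymus from 2.11 to 14.2 CPM (2.74 ± 0.21). The adjusted p of these changes was 2.2e-08 or less. In trachea Dusp4 fell from 13.8 to 5.59 CPM (-1.29 ± 0.15, adjusted p = 4.8e-06).

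Of 7 genes for BMP ligands and a receptor, a family with members that act upstream of many Dlx and Msx genes, 3 rose in bladder, 1 rose and 4 fell in trachea, 1 rose and 4 fell in vagina, 3 rose and 2 fell in thymus, and 3 fell in whisker cells. These counts do not measure BMP signalling, which was not tested. The median log2 change of the 7 was -1.22 in trachea and -1.26 in vagina, and lay between -0.23 and 0.46 elsewhere. With so few genes in the ERK and BMP lists, 1 gene moves a share by over 10 percentage points. Bmp6 rose in bladder from a mean of 1.21 to 15.4 CPM (3.67 ± 0.22, adjusted p = 1.1e-09). The gene that rose in vagina, named after its values were seen, was Bmp2, from 2.65 to 11 CPM (2.07 ± 0.2, adjusted p = 5.4e-07). In vagina Bmp4 fell from 14.9 to 2.11 CPM (-2.86 ± 0.21, adjusted p = 2.4e-08) and Bmp8b from 36.7 to 4.44 CPM (-3.04 ± 0.15, adjusted p = 3e-10).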

How the data were processed

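RNA was sequenced from 20 samples of EGFP-sorted rat epithelial cells. The authors screened and trimmed the reads (cutadapt 1.8), aligned them with STAR 2.5.2b to the Rnor_6.0 assembly and deposited raw read counts per Ensembl gene from HTSeq 0.6.1. Reads with several alignments were left out of those counts (between 11601894 and 19374286 per sample), which lowers genes with near-identical copies. Libraries were made with a stranded mRNA kit, and the strand option of the counting is not given in the sources used here.

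From these counts, TMM-scaled CPM were computed in edgeR 4.0.16, and of 32494 genes the 13302 that reached 1 CPM in any of the samples were tested with limma 3.58.1 (voom, R 4.3.3) in a model with a mean per group (10 residual degrees of freedom). Adjusted p values are those of Benjamini-Hochberg over all genes tested within each comparison. Changes were called at an adjusted p under 0.05 and at least 2-fold, and the interaction of round and tissue by a moderated F test at an adjusted p under 0.05. Counting intervals are exact 95% intervals and, like the floor of 3 counts, cover counting error only. No fold was given where both groups were at or under that floor.

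Identifiers were paired with symbols only through the supplementary gene lists, of which the larger was at hand in part, in alphabetical order from the start. All 23 genes passed the filter, though Dlx6, Dlx6as and Sox11 did so only through samples before transplantation. The members and the other gene lists were chosen with earlier results of these data known. Every member was named, and from each other list the 3 genes with the largest called change at 10 CPM or more, with Eya1 among them. Other genes that the family names would take in are not reported here and are in no count of members. The order of neighbouring genes was taken from RefSeq (GRCr8), in which 22 of the 23 symbols were found. Promoter windows on the same assembly were at hand for 9 of the 23 members, and no promoter or protein sequence was used for the others. The alternatives were edgeR's quasi-likelihood test, DESeq2 1.42.0, DESeq2 size factors, other low-count filters, sample quality weights, a replicate block, a stricter fold, fits of only the 4 samples compared and leaving out each sample in turn. The calculations were tested on simulated counts.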

Additional observations from a re-analysis of the deposited data

Results flagged for a closer look

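The change after transplantation differed among the 5 tissues, by the moderated F test of the interaction of round and tissue in limma voom, for each of the 23 genes. That is not particular to them, since 78.8% of all genes tested and 87.5% of genes with a symbol passed the same test. The adjusted p was 2.3e-10 for Etv4, 5.6e-09 for Barx2, 1.2e-08 for Etv5, 1.4e-08 for Dlx3 and 2.3e-08 for Tbx3. It was 8.6e-08 for Elf3, 3.5e-07 for Elf5, 8e-07 for Tbx1 and 1.7e-06 for Hoxa3. For Hoxb3 it was 1.2e-05, for Ehf 1.9e-05, for Dlx5 5e-05, for Hoxb4 7.7e-05, for Dlx6 0.00016, for Irx4 0.00018 and for Dlx4 0.00031. It was 0.00053 for Dlx6as, 0.0015 for Sox11, 0.0019 for Isl1, 0.0023 for Etv1, 0.014 for Foxa1, 0.036 for Dlx1 and 0.043 for Dlx2.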

How the results depend on the processing

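With a log2 fold change of at least 2, 6 members were called in trachea, 4 in vagina, 3 in thymus and 3 in whisker cells, and 49 differences between pairs of non-hair tissues in recovered cells. With sample quality weights 5 members were called in thymus, where the cause was not tested, and with only the 4 samples compared 3 were called in whisker cells, where the fit holds fewer samples. The 2 thymus samples before transplantation differed most from each other, with a mean chi-square per gene of 44 for the split of reads between them. It was 35.1 in bladder before transplantation and between 2.51 and 10.1 in the other groups. The main fit shares its spread over all groups, so it may understate that of the thymus and bladder changes. Leaving out each sample in turn, between 7 and 12 members were called in bladder, 9 and 11 in trachea, 6 and 8 in vagina, 7 and 10 in thymus and 4 and 6 in whisker cells, between 93 and 98 and between 72 and 78 pair differences before transplantation and in recovered cells, and between 10 and 13 genes had the same highest non-hair tissue in both rounds. The interaction was called for between 20 and 23 genes without a sample, 21 in edgeR and 22 in DESeq2. The other alternatives left these counts within 1.5 times of those reported.

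Of the changes of single genes, counted with those of the named genes of the other lists, 52 were called. All 52 held with DESeq2 size factors, 50 in edgeR, 46 each with the DESeq2 test, sample quality weights and only the 4 samples compared, and 51 with no low-count filter. The stricter filter left 49 of them, all called, and removed the others, which were the calls of Dlx6as, from the test. Calls lost in at least 1 of these were Dlx1 and Tbx1 in bladder, Irx4 in vagina, Dlx6, Dlx6as, Etv1, Hoxb4 and Tbx1 in thymus, and Dlx6as and Sox11 in whisker cells. Changes that turned direction were all uncalled. Barx2 in vagina was -0.01 with the DESeq2 test and with DESeq2 size factors, 0 with no low-count filter and 0 with the stricter one, and between -0.05 and 0.04 without a sample. Without a sample the changes in vagina ranged from -0.12 to 0.20 for Dlx1, -0.17 to 0.43 for Dlx2 and -0.41 to 0.15 for Elf5, those in thymus from -0.44 to 0.47 for Dlx4 and -0.17 to 1.05 for Irx4, and those in bladder from -0.06 to 1.04 for Dlx5, -0.07 to 0.41 for Ehf and -0.04 to 0.35 for Tbx3.

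With the replicate number as a replicate block, 9 members were called in bladder, 11 in trachea, 8 in vagina, 10 in thymus and 5 in whisker cells, and no call of a single gene changed. The deviations of same-numbered samples correlated by between -0.123 and 0.24 (median 0.0193 over 45 pairs of groups), with 10 pairs of groups over 0.1. The numbers were therefore not taken as pairs in the main fit, but this check cannot exclude that some groups were handled together. With 2 samples per group each test borrows its spread from the other groups, and genes near the floor are limited by their counts.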
